A study of Mus musculus with 10 samples.

Results

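The genes described here are Nr3c1, which encodes the glucocorticoid receptor, 6 genes known for their response to glucocorticoids (Fkbp5, Sgk1, Tsc22d3, Zbtb16, Errfi1 and Sult1a1), and the metallothionein genes Mt1, Mt2 and Mt3. They were listed by name, and each was read through the probe set whose platform annotation gives that gene symbol alone, the brightest over all arrays where a gene has more than 1. All 10 were found, each with 1 probe set, among 22180 genes with such a probe set. All 10 also passed a filter on dim probe sets at a log2 level of 5.32, which left 17712 genes for the test. Levels are the authors' deposited log2 signal per probe set, so levels of different genes are not comparable with each other.

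RNA came from mouse cortical cells at 8 weeks of age, sorted by flow cytometry on an EGFP reporter that marks astrocytes, the glia that surround synapses and vessels. The samples comprised 5 arrays labelled FMR1-KO and 5 Control arrays labelled wild-type. Both groups were sorted in the same way, and the labels call the samples biological replicates. The labels name neither the reporter's promoter, nor the strain, nor whether 1 array is 1 animal, so a p-value speaks only to variation among these samples. The design text states the comparison as control against knockout of Fmr1, the gene silenced in fragile X syndrome.

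Corticosterone, the main glucocorticoid of mice, enters cells and binds Nr3c1 protein held in a chaperone complex, and the receptor then moves to the nucleus and binds DNA at paired half-sites called glucocorticoid response elements. Targets such as Fkbp5, whose product is a co-chaperone that lowers the affinity of the receptor for its hormone, rise after stress or hormone treatment in many tissues, astrocytes among them. Metallothioneins are small cysteine-rich proteins that bind zinc and copper. Mt1 and Mt2 are induced by zinc, through the transcription factor Mtf1 at metal response elements, and by glucocorticoids, while Mt3 is found mainly in the nervous system and is known to respond little to metals.

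Start sites came from a promoter table made from RefSeq on GRCm38.p6, which is not complete and in which 8 of the 10 genes were matched, at 16 sites. Nr3c1 and Zbtb16 were not analysed in this way. The 250 bases before each start were searched on both strands for the metal response core, TGCGCNC or TGCACNC, and for the palindromic glucocorticoid element, AGAACA followed by any 3 bases and TGTTCT. Mt3, Mt2 and Mt1 lie on chromosome 8 in that order, on the same strand, after Mt4 and with 1 long non-coding RNA gene between Mt3 and Mt2. Their 3 windows are shown because these genes read high on the same arrays, and 1 Sgk1 window is shown because it holds the glucocorticoid element. All lie on the plus strand of GRCm38.p6, at chr8:94178839-94179088 for Mt1, chr8:94172368-94172617 for Mt2, chr8:94152357-94152606 for Mt3 and chr10:21993640-21993889 for Sgk1. Capitals mark the motif matches, and none overlaps another.
Mt1: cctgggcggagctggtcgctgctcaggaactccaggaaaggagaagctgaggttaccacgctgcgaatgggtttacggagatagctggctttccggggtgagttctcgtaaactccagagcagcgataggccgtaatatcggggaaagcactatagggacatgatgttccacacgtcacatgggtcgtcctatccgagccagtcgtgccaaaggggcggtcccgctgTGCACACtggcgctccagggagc
Mt2: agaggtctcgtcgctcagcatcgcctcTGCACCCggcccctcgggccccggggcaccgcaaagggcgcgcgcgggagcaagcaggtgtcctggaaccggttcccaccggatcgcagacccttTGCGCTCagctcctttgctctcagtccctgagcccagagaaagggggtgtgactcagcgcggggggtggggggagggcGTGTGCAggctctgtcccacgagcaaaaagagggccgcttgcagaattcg
Mt3: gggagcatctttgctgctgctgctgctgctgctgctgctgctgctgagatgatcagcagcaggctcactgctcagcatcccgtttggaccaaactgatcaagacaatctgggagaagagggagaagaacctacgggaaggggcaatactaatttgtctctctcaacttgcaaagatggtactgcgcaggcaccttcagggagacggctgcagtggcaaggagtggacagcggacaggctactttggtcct
Sgk1: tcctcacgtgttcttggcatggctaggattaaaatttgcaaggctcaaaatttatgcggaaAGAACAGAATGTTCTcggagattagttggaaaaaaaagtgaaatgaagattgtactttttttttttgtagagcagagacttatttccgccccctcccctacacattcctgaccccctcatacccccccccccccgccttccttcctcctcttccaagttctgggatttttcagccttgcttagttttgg

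The Mt1 window holds 1 metal response core, starting 23 bases before the start site, and the Mt2 window holds 3, starting 223, 128 and 50 bases before it. No match was found in the Mt3 window. Bases outside these windows, including those after the listed starts, were not searched, so the counts do not cover whole promoters. At least 1 such core is in 21.4% of all 32851 promoter windows of this length, and 2 or more are in 5.17%. The full glucocorticoid element is in 3 of the 32851 windows (0.00913%), and 1 of these is the Sgk1 window above, with the element starting 189 bases before the start. The other 5 Sgk1 windows, and those of Fkbp5, Tsc22d3, Errfi1 and Sult1a1, hold neither motif. A match describes these letters and does not show that a factor binds. A missing match covers only these exact letters in these windows, and variant or more distant elements were not searched.

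Before the results, 3 features of the arrays bear on them. Fmr1 signal was not lower on the arrays labelled FMR1-KO, at 8.01 to 8.38 against 7.60 to 8.28 on Control arrays, and how the allele was made is not stated in the labels, so this reading does not check them. Xist, the RNA that coats an inactive X chromosome, was at 10.60 and 10.98 on Control arrays 2 and 3, against 4.98 to 5.23 on the other 8, and Uty, a Y-linked gene, was at 4.82 and 4.77 there, against 7.64 to 8.30 on the other 8. High Xist with low Uty thus occurred in the Control group only, so the groups are not balanced in these sex-linked signals. Of the 10 genes described, Tsc22d3 lies on the X chromosome. The mean of 22 measured microglia and macrophage markers was lowest on arrays FMR1-KO 2, FMR1-KO 1 and Control 1, at 8.99, 9.58 and 9.70, against 10.10 to 10.33 on the other arrays labelled FMR1-KO and 10.47 to 10.65 on the other Control arrays. On those 3 arrays the mean of 20 astrocyte markers was highest, at 10.86, 10.80 and 10.44, against 9.94 to 10.13 on the other arrays labelled FMR1-KO and 9.74 to 10.03 on the other Control arrays. All 22 microglia markers had a lower mean and all 20 astrocyte markers a higher mean on the arrays labelled FMR1-KO. Other cell types read with smaller shifts in their list means, at 6.53 to 6.70 against 6.59 to 6.94 for endothelial markers, 7.23 to 7.59 against 6.97 to 7.60 for pericyte and smooth muscle markers, 6.41 to 6.66 against 6.33 to 6.63 for the oligodendrocyte lineage, 6.22 to 6.45 against 6.24 to 6.45 for neurons, and 7.96 to 8.77 against 8.20 to 8.94 for choroid plexus and ependyma, each given for the arrays labelled FMR1-KO against Control. The mean was lower for 12 of 14 measured endothelial markers and for 6 of 7 choroid plexus and ependymal markers, beside 9430 of all 17712 genes. At a limma unadjusted p under 0.05, 4 of 14 endothelial, 7 of 22 microglia and 2 of 10 neuron markers were lower, beside 3.53% of all genes. On the higher side were 7 of 20 astrocyte, 1 of 8 pericyte and smooth muscle and 1 of 10 neuron markers, beside 4% of all genes. In material of this kind, fewer cells of a type and less RNA per cell cannot be told apart.

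No gene of the 10 passed the test between the groups. Sgk1 read lower on the arrays labelled FMR1-KO, by 0.63 ± 0.24 on the log2 scale (SE, n = 5 each), and Mt1 and Mt2 read higher by 0.32 ± 0.13 and 0.34 ± 0.20. The receptor gene Nr3c1 differed by -0.06 ± 0.09. In limma, with Benjamini-Hochberg adjustment over all 17712 genes, adjusted p ran from 0.654 to 0.915 over the 10 genes, and the background was 0 of 17712 genes called (0%). At an unadjusted p under 0.05 there were 2 of the 10, Sgk1 lower and Mt1 higher, beside 1334 of all genes (7.53%). That count was 0 without FMR1-KO array 2, and 1 without Control array 3, 4 or 5. As single arrays were left out, the share of all genes ran from 4.48% to 13.7%. The smallest p that the exact permutation test can give is 0.00794. Adjusted over all genes, it could hardly call a gene unless many sat at that floor together, so its 0 calls add no support. Its smallest unadjusted p among the 10 was 0.0556, for Sgk1 and Mt1. For 0 of the 10 did the 2 groups of arrays fail to overlap, against 0.965% of all genes.

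**Figure D1:**
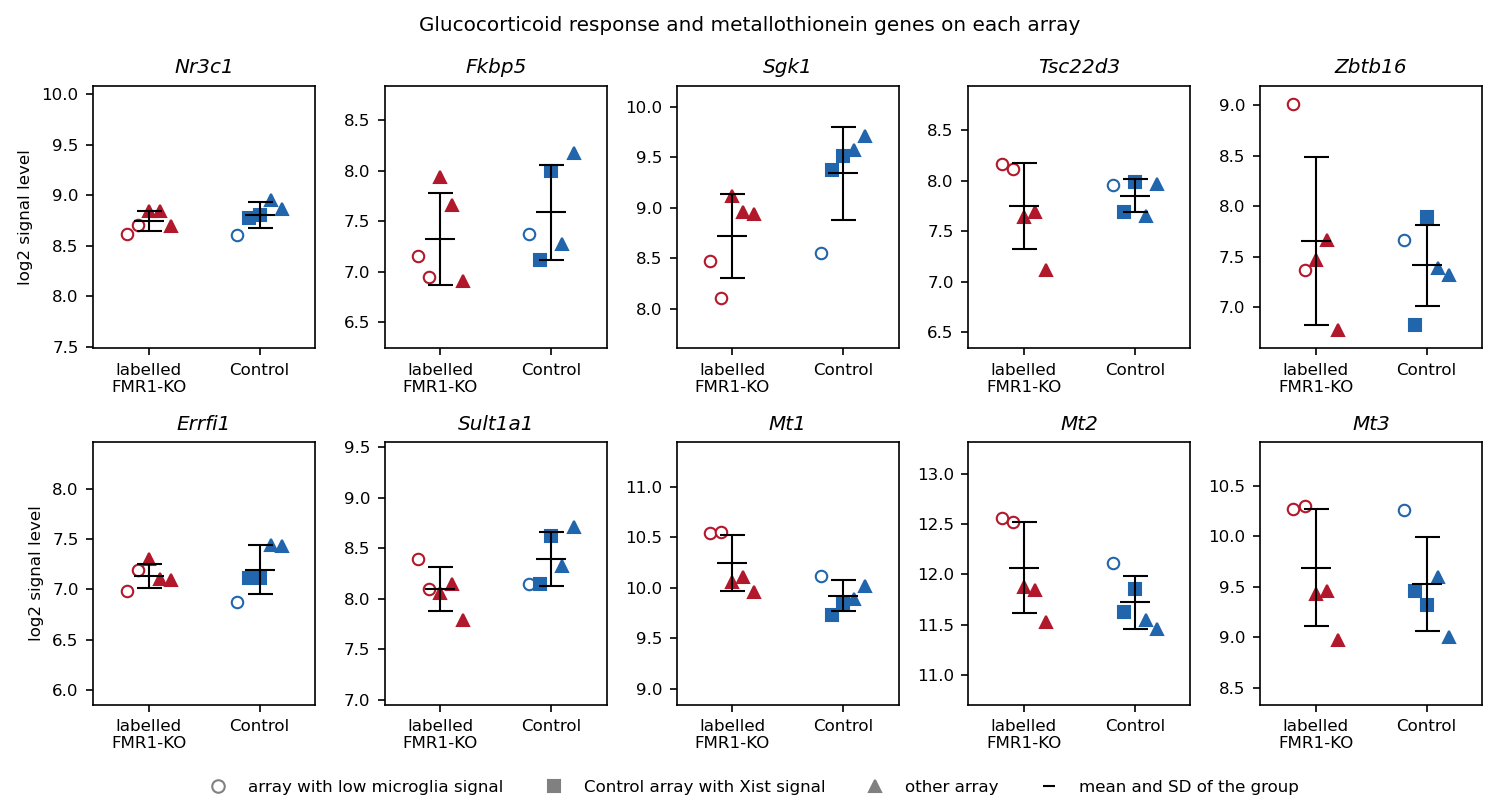
Log2 signal level (y axis, each panel spanning the same range) of each of the 10 genes on the 5 arrays labelled FMR1-KO (red, left) and the 5 Control arrays (blue, right), with mean and SD. Open circles are the 3 arrays where microglia markers averaged lowest, which carry the highest Mt1, Mt2 and Mt3 values and the lowest Sgk1 values, and squares are the Control arrays with Xist signal.

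Nr3c1 (probe set 17353985) itself varied little. The arrays labelled FMR1-KO 1 to 5 read 8.62, 8.70, 8.84, 8.85 and 8.70, and Control arrays 1 to 5 read 8.61, 8.77, 8.81, 8.96 and 8.87. The groups overlapped almost wholly, and the lowest Control value was below every array labelled FMR1-KO. The difference had a 95% interval of -0.25 to 0.13 (limma adjusted p = 0.879), and it ran from -0.11 to -0.022 as single arrays were left out.

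Fkbp5 (probe set 17342868), the co-chaperone gene that serves as a common readout of receptor activity, spread widely inside both groups. It read 7.16, 6.95, 7.93, 7.66 and 6.91 on the arrays labelled FMR1-KO and 7.38, 7.12, 8.00, 7.27 and 8.17 on Control arrays. The highest readings came from FMR1-KO arrays 3 and 4 and Control arrays 3 and 5, so neither group was uniformly high or low. The difference was -0.26 ± 0.25 (SE; 95% interval -0.80 to 0.27; limma adjusted p = 0.781). It was -0.42 without FMR1-KO array 3 and -0.12 without Control array 5.

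Sgk1 (probe set 17232055), which encodes a kinase that regulates ion channels and transporters, had the largest difference of the 10. Its levels on the arrays labelled FMR1-KO were 8.47, 8.11, 9.11, 8.96 and 8.94, all below the Control mean of 9.35 ± 0.46 (SD, n = 5). Control arrays read 8.55, 9.38, 9.52, 9.57 and 9.71. The groups overlapped through Control array 1, whose value lay below 3 of the arrays labelled FMR1-KO. As a ratio of signals this was 0.648-fold (95% interval 0.454 to 0.924; limma unadjusted p = 0.0208, adjusted p = 0.654). The exact two-sided permutation test over the 252 assignments of arrays to groups gave p = 0.0556 (0.766 adjusted over all genes), where the smallest possible is 0.00794.

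The Sgk1 levels moved with the microglia markers. The 3 lowest Sgk1 values were on FMR1-KO array 2, FMR1-KO array 1 and Control array 1, in the same order as the microglia marker means. Without those 3 arrays, Sgk1 read 8.94 to 9.11 on the 3 remaining arrays labelled FMR1-KO and 9.38 to 9.71 on the 4 remaining Control arrays. On these 7 arrays the microglia means did not overlap between the groups either, at 10.10 to 10.33 on arrays labelled FMR1-KO and 10.47 to 10.65 on Control arrays. Leaving out the 3 arrays thus did not remove the microglia difference. Among the 10 genes, the groups did not overlap on the 7 arrays for 2, Sgk1 and Sult1a1, beside 9.27% of all genes. The Sgk1 difference there was -0.54 ± 0.11 (SE; limma unadjusted p = 3.79e-04, adjusted p = 0.293). At an unadjusted p under 0.05 these 7 arrays held 3 of the 10 genes, beside 8.9% of all genes. Fitted over all 10 arrays beside the microglia mean as a covariate, the Sgk1 difference was -0.16 ± 0.11 (limma adjusted p = 0.9997).

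Tsc22d3 (probe set 17544939) encodes GILZ, a leucine zipper protein that carries part of the anti-inflammatory action of glucocorticoids. It read 8.17, 8.12, 7.64, 7.69 and 7.11 on the arrays labelled FMR1-KO and 7.96, 7.69, 7.99, 7.65 and 7.97 on Control arrays. The arrays labelled FMR1-KO thus held both the highest and the lowest readings, with Control in between, and the difference was -0.11 ± 0.18 (SE; limma adjusted p = 0.899). It was 0.05 without FMR1-KO array 5 and -0.34 ± 0.15 on the 7 arrays with higher microglia means (limma unadjusted p = 0.0441, adjusted p = 0.545).

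Zbtb16 (probe set 17526707) encodes the zinc finger transcription factor PLZF. The arrays labelled FMR1-KO read 9.01, 7.36, 7.47, 7.66 and 6.77, and Control arrays read 7.66, 6.82, 7.89, 7.39 and 7.32. FMR1-KO array 1 stood more than 1 log2 unit above every other array. The difference of 0.24 ± 0.34 (SE; limma adjusted p = 0.878) was -0.10 without that array.

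Errfi1 (probe set 17421972), which encodes an inhibitor of the epidermal growth factor receptor, read 6.99, 7.19, 7.30, 7.10 and 7.09 on the arrays labelled FMR1-KO and 6.87, 7.12, 7.11, 7.44 and 7.43 on Control arrays. Control arrays held both ends of the range, and the difference was -0.06 ± 0.12 (SE; 95% interval -0.32 to 0.19; limma adjusted p = 0.915).

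Sult1a1 (probe set 17496354) encodes a sulfotransferase that adds sulfate to phenolic compounds. Its levels were 8.39, 8.09, 8.06, 8.14 and 7.79 on the arrays labelled FMR1-KO and 8.14, 8.15, 8.63, 8.33 and 8.71 on Control arrays. All arrays labelled FMR1-KO but the first lay below Control arrays 2 to 5. The difference was -0.30 ± 0.14 (SE; limma unadjusted p = 0.0568, adjusted p = 0.655), and -0.46 ± 0.15 on the 7 arrays with higher microglia means (unadjusted p = 0.00939, adjusted p = 0.364). Beside the microglia mean as a covariate it was -0.26 ± 0.16.

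Of the metallothionein genes, Mt1 (probe set 17503942) read 10.54, 10.56, 10.06, 10.11 and 9.96 on the arrays labelled FMR1-KO, each above the Control mean of 9.92 ± 0.15 (SD, n = 5). Control arrays read 10.12, 9.73, 9.85, 9.89 and 10.02. FMR1-KO arrays 1 and 2 stood above all others, and the remaining values overlapped. The signal ratio was 1.25-fold (95% interval 1.02 to 1.53; limma unadjusted p = 0.0310, adjusted p = 0.654), and the exact permutation p was 0.0556 (0.766 adjusted over all genes).

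Mt2 (probe set 17503937) repeated the pattern with a wider spread. The arrays labelled FMR1-KO read 12.56, 12.52, 11.88, 11.85 and 11.53, and Control arrays read 12.11, 11.63, 11.86, 11.55 and 11.46. The highest 3 values came from FMR1-KO arrays 1 and 2 and Control array 1. The difference was 0.34 ± 0.20 (SE; 95% interval -0.10 to 0.78; limma adjusted p = 0.678). It was 0.22 without FMR1-KO array 1 and 0.48 without FMR1-KO array 5, the second at an unadjusted p of 0.0268 (adjusted p = 0.542).

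Mt3 (probe set 17503932) showed those 3 arrays most plainly. It read 10.27, 10.30, 9.43, 9.46 and 8.97 on the arrays labelled FMR1-KO and 10.26, 9.46, 9.32, 9.59 and 9.01 on Control arrays. Control array 1 was level with FMR1-KO arrays 1 and 2, and no other array exceeded 9.59. The group difference was 0.16 ± 0.28 (SE; limma adjusted p = 0.903), and it was 0.34 without Control array 1 and 0.0076 without FMR1-KO array 2.

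All 3 metallothionein genes were thus highest on the arrays with the lowest microglia and highest astrocyte marker means, the opposite of Sgk1. For Mt1 this was narrow on Control array 1, at 10.12 against 10.11 on FMR1-KO array 4. On the other 7 arrays the differences were 0.17 ± 0.11 for Mt1, 0.13 ± 0.13 for Mt2 and -0.06 ± 0.16 for Mt3 (SE; limma adjusted p = 0.730, 0.881 and 0.973). Beside the microglia mean as a covariate they were 0.13 ± 0.11, 0.01 ± 0.15 and -0.33 ± 0.18 (adjusted p = 0.9997 for each). Beside the astrocyte mean as a covariate, an alternative chosen after seeing the data, Mt1 differed by 0.11 ± 0.10, Mt2 by -0.02 ± 0.11 and Mt3 by -0.37 ± 0.11, the last at an unadjusted p of 0.00588 (adjusted p = 0.624). The part of cell makeup in these differences was not tested beyond these fits. Mt4, the remaining family member, read 4.81 to 5.21 on the arrays labelled FMR1-KO and 4.85 to 5.42 on Control arrays, and its mean fell below the dim cutoff.

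**Figure D2:**
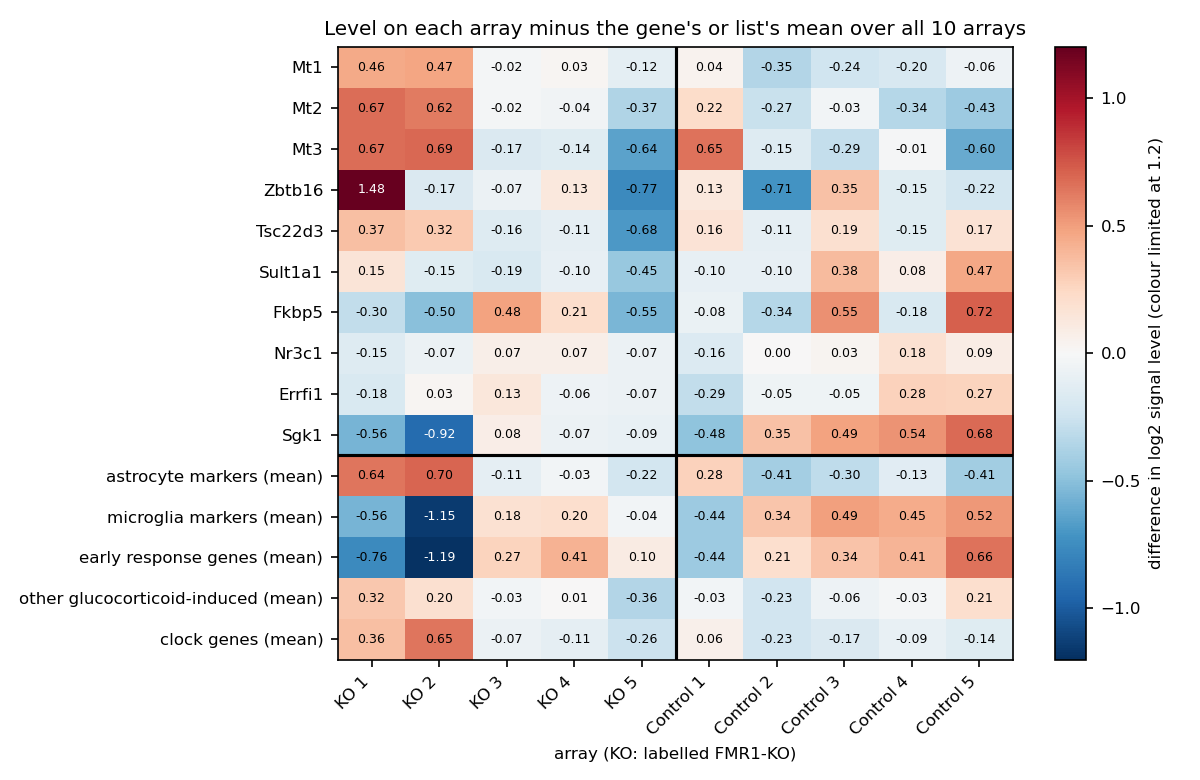
Level of each gene (upper rows) or mean of a gene list (lower rows) on each array minus its own mean over all 10 arrays, in log2 units, with the 5 arrays labelled FMR1-KO left of the line and the 5 Control arrays right of it. FMR1-KO arrays 1 and 2 and Control array 1 are positive for Mt1, Mt2, Mt3 and the astrocyte markers and negative for Sgk1 and the microglia markers.

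**Figure D3:**
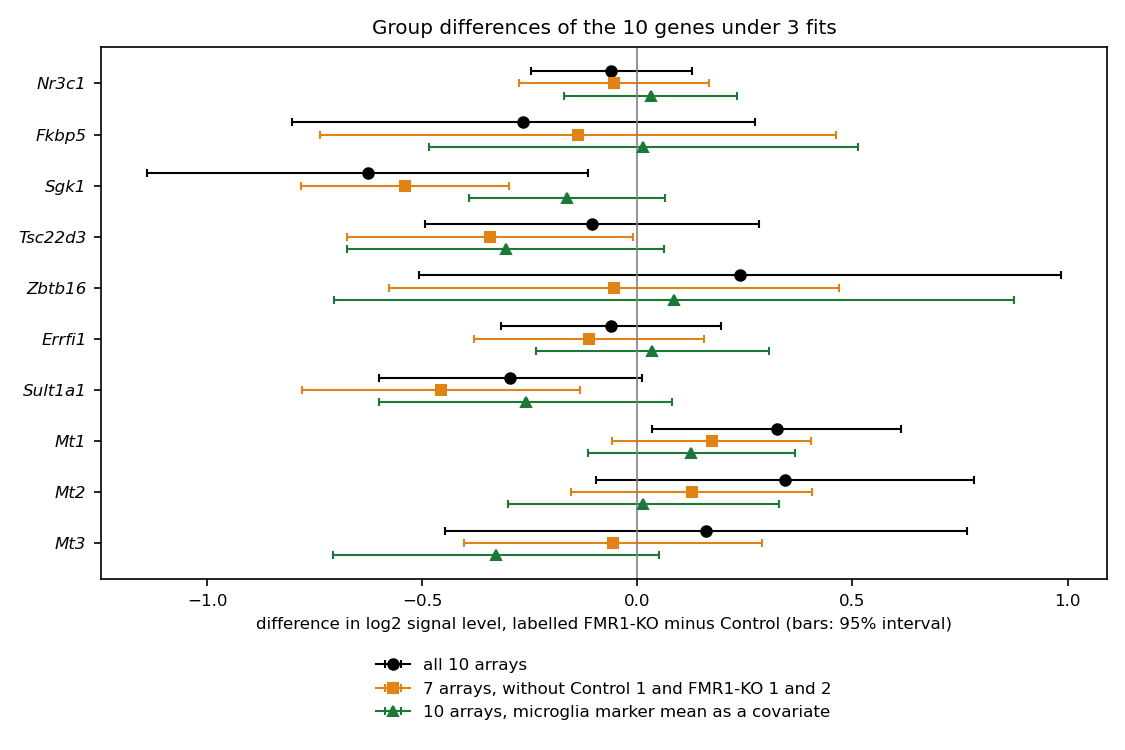
Difference in log2 level, arrays labelled FMR1-KO minus Control, with 95% intervals for the 10 genes (rows) over all 10 arrays (black), over the 7 arrays with higher microglia means (orange) and beside the microglia mean as a covariate (green). The Sgk1 difference is -0.63, -0.54 and -0.16 and the Mt2 difference 0.34, 0.13 and 0.01 under these fits.

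Genes around the receptor were read next, from lists chosen by their role. Over all 17712 genes the mean was higher for 8282 and lower for 9430, the split to set beside each list count below. Among 12 measured receptor chaperones and coregulators, the mean was higher for 3 and lower for 9. The median difference was -0.07, beside -0.01 over all genes, and 0 passed limma's adjusted threshold. At an unadjusted p under 0.05 there was 1 higher, the coactivator gene Ncoa1 at 0.39 ± 0.16 (SE; adjusted p = 0.654), beside 4% of all genes on the higher side. The co-chaperone genes Bag1 and St13 differed by -0.22 ± 0.11 and -0.19 ± 0.10. Nr3c2, which encodes the mineralocorticoid receptor that binds corticosterone with higher affinity, differed by 0.17 ± 0.11 (limma adjusted p = 0.699).

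Of the 4 measured genes of corticosteroid metabolism and transport, the mean was higher for 2 and lower for 2, the median was 0.04, and 0 passed the limma test at an adjusted or an unadjusted p under 0.05. Hsd11b1, whose enzyme regenerates active corticosterone inside cells, read 7.56, 7.82, 6.69, 6.81 and 6.74 on the arrays labelled FMR1-KO and 6.94, 7.09, 6.70, 7.12 and 6.56 on Control arrays. Its 2 highest readings were on FMR1-KO arrays 1 and 2, and the difference was 0.24 ± 0.22 (SE; limma adjusted p = 0.778). H6pd, which supplies that enzyme with its cofactor, differed by -0.22 ± 0.11, and Hsd11b2, whose enzyme inactivates the hormone, by 0.09 ± 0.12.

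A further 27 measured genes known to be induced by glucocorticoids had a higher mean in 13 cases and a lower one in 14. The median was -0.00, with 0 past the limma test at an adjusted or an unadjusted p under 0.05. Angptl4, a secreted inhibitor of lipoprotein lipase, differed by 0.40 ± 0.19 (SE), the actin-associated Fam107a by 0.44 ± 0.22, and Nfkbia, which encodes an inhibitor of NF-kappaB, by -0.38 ± 0.22 (limma adjusted p = 0.655, 0.659 and 0.678). Per1, a clock gene with a well known glucocorticoid response, differed by -0.01 ± 0.27. The list mean was 7.94 to 8.61 on the arrays labelled FMR1-KO and 8.07 to 8.50 on Control arrays, so the groups overlapped, and the lowest value belonged to FMR1-KO array 5. Per1 is also on the clock list and Gjb6 also among the astrocyte markers. Abcb1a, on the list of corticosteroid metabolism and transport, is also among the endothelial markers, so these lists are not independent.

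**Figure D4:**
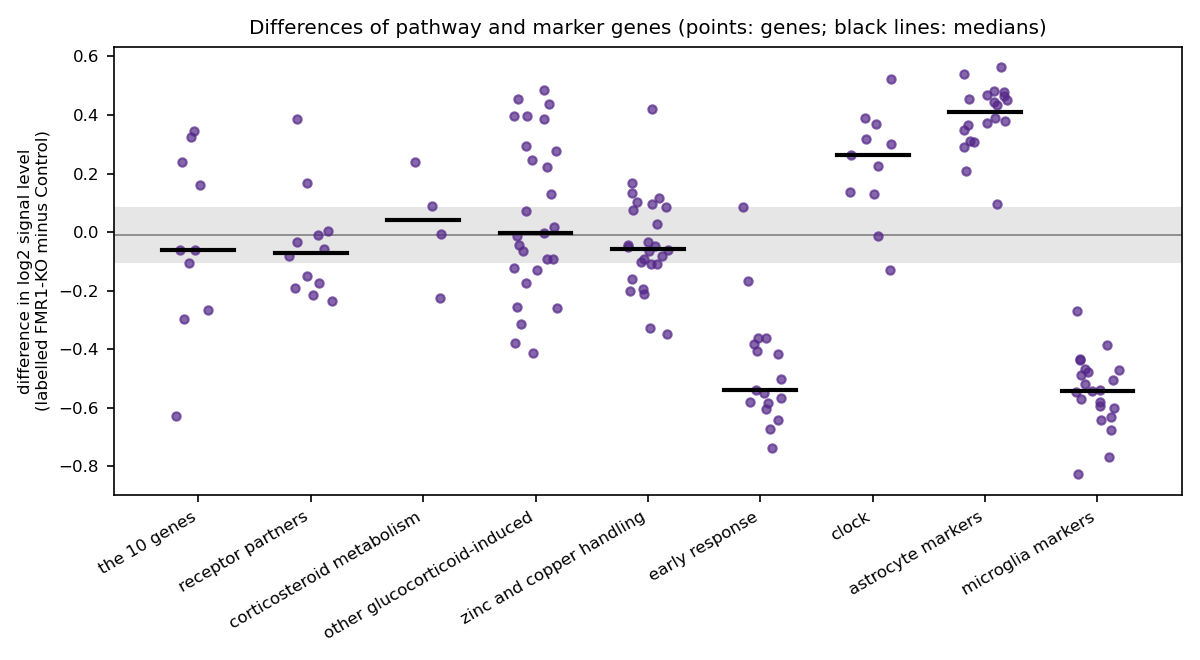
Difference in log2 level, arrays labelled FMR1-KO minus Control (y axis), of each measured gene (points) in the 10 described genes, in lists of related genes and in marker lists, with list medians as black lines and the quartiles of all 17712 genes as a grey band. The glucocorticoid-induced list spreads around a median of -0.00, while the early response and microglia lists lie low and the astrocyte list high, the early response median being -0.54 here, -0.26 without FMR1-KO array 2 and 0.14 with the microglia covariate.

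Among 26 measured genes of zinc and copper handling, the mean was higher for 9 and lower for 17, the median was -0.06, and 0 passed limma's adjusted threshold. At an unadjusted p under 0.05 there was 1, Atox1, a copper chaperone gene, which differed by -0.35 ± 0.11 (SE; limma unadjusted p = 0.00987, adjusted p = 0.654), beside 3.53% of all genes on the lower side. The zinc importer gene Slc39a8 differed by -0.33 ± 0.15, Slc39a12 by 0.42 ± 0.23 and Slc39a14 by 0.17 ± 0.13. Mtf1, the zinc sensor that activates Mt1 and Mt2, differed by 0.10 ± 0.09 (limma adjusted p = 0.776). Slc30a1, a zinc exporter gene that Mtf1 also activates, was not analysed here.

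Corticosterone follows a daily rhythm, and cell isolation itself induces early response genes, so lists for both were read beside the 10 genes. Of 17 early response genes that rise during tissue dissociation, the mean was higher for 1 and lower for 16, the median was -0.54, and 0 passed limma's adjusted threshold. Ier3 differed by -0.56 ± 0.22 (SE; limma unadjusted p = 0.0259). It was the only gene of this list at an unadjusted p under 0.05, beside 3.53% of all genes on the lower side. Junb differed by -0.74 ± 0.34, Egr2 by -0.42 ± 0.20 and Fos by -0.67 ± 0.33. The list mean was 8.38, 7.96, 9.42, 9.56 and 9.25 on the arrays labelled FMR1-KO and 8.71, 9.36, 9.49, 9.56 and 9.80 on Control arrays, lowest on the 3 arrays where Sgk1 was lowest. The list median was -0.26 without FMR1-KO array 2, -0.34 without FMR1-KO array 1, -0.10 without those 2 and Control array 1, and 0.14 with the microglia covariate. Of 11 measured clock genes, the mean was higher for 9 and lower for 2, the median was 0.26, and 0 passed limma's adjusted threshold. Per3 at 0.39 ± 0.17 was the only one at a limma unadjusted p under 0.05, beside 4% of all genes on the higher side. Arntl differed by 0.32 ± 0.16 and Hlf by 0.26 ± 0.13. The list mean was 8.73, 9.02, 8.30, 8.27 and 8.12 on the arrays labelled FMR1-KO and 8.44, 8.14, 8.20, 8.28 and 8.23 on Control arrays, so FMR1-KO arrays 1 and 2 stood above all others. The list median was 0.14 without FMR1-KO array 2, 0.014 over the 7 arrays and -0.0087 with the microglia covariate. The part of dissociation and of time of day in the Sgk1 and metallothionein values was not tested.

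For Nr3c1, Fkbp5 and Mt1, the tested genes with the most similar levels over the 10 arrays were taken by Pearson's r, as a description. The arrays share differences in cell makeup, and picking the highest among 17712 genes makes high values likely. Mt1 was most like the chloride channel gene Clcn2, the GABA receptor gene Gabbr2 and Itih3, with r of 0.992, 0.988 and 0.982 over 10 arrays, and 0.962, 0.937 and 0.911 over the 7 arrays with higher microglia means. Nr3c1 was most like Tor4a, Wdr26 and Zdhhc14, with r of 0.942, 0.941 and 0.937 over 10 arrays and 0.852, 0.922 and 0.835 over the 7. Fkbp5 was most like Irf9, B3galnt1 and Ranbp10, with r of 0.939, 0.938 and 0.937 over 10 arrays and 0.983, 0.953 and 0.953 over the 7.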

How the data were processed

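Per the labels' protocols, total RNA of sorted cells was copied and amplified with Affymetrix WT kits, then fragmented and biotinylated. The authors deposited log2 signal levels per probe set, with a scale read from the values (array medians 6.11 to 6.24), and compared the groups in GeneSpring 13.1.1, per the series' design text. How background, normalization and probe summary were handled is not given in the sources used. Precision is limited by the number of arrays.

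Of 33793 probe sets, 23521 have 1 gene symbol, 1814 several and 8458 none listed. The brightest probe set per gene was kept, and those whose mean lay under the 25th percentile were dropped as dim. Arrays labelled FMR1-KO and Control, 5 each, were compared by limma (version 3.58.1, R version 4.3.3; lmFit, then eBayes). Its two-sided p-values were adjusted by Benjamini-Hochberg across 17712 genes, with a threshold of 0.05. The fit was tested on simulated data. The 10 genes, the gene lists and the alternatives were chosen with earlier results of these data known. Besides the 10 genes, the text names Fmr1, sex-linked genes, up to 3 genes per list with the smallest unadjusted p, a few genes for their role, and the 3 most similar genes of Nr3c1, Fkbp5 and Mt1. Alternatives covered normalization, filters, probe set choice, eBayes settings, weights per array, a block for the replicate number, left-out arrays, marker means as covariates and an exact permutation test.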

Additional observations from a re-analysis of the deposited data

Results flagged for a closer look

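In a check for a sample far from the rest of its group, 3 of 32 sets of 5 values stood out, where chance gives about 1 in 20. Sgk1 read 8.55 on Control array 1, while the other Control arrays read 9.38 to 9.71. The mean of the receptor chaperone and coregulator list was 8.35 on FMR1-KO array 5, and 8.56 to 8.62 on the other arrays labelled FMR1-KO. The mean of the zinc and copper handling list was 7.27 on FMR1-KO array 5, and 7.56 to 7.60 on the other arrays labelled FMR1-KO.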

How the results depend on the processing

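Of 23 alternatives, the exact permutation test could hardly call a gene after adjustment, its smallest possible p being 0.00794. Under all 23, 0 of the 10 genes passed limma's or the permutation test's adjusted threshold, with the smallest adjusted p at 0.203, for Sgk1 without Control array 1. Over all genes 0 passed in 21 of them, Cnbd2 alone without Control array 5 (1 gene, range 0 to 1 over the left-out arrays) and Tlcd1 alone without FMR1-KO arrays 1 and 2 and Control array 1 (1 gene). Sgk1 (-0.83 to -0.16), Sult1a1 (-0.46 to -0.21) and Mt1 (0.11 to 0.40) kept their direction in all 23. The number of the 10 genes at an unadjusted p under 0.05 was 1 with trend and robust eBayes. It was 0 without Control arrays 2 and 3, beside the microglia mean as a covariate and by the exact permutation test. The shares of all genes under these alternatives are not given here, so these counts have no background beside them. Over the left-out arrays the number ran from 0 to 3, beside 4.48% to 13.7% of all genes. Signs turned for Zbtb16 (-0.055) and Mt3 (-0.056) without FMR1-KO arrays 1 and 2 and Control array 1, for Nr3c1 (0.031), Fkbp5 (0.014), Errfi1 (0.035) and Mt3 (-0.33) with the microglia covariate, and for Nr3c1 (0.011), Zbtb16 (-0.15), Errfi1 (0.019), Mt2 (-0.018) and Mt3 (-0.37) with the astrocyte covariate, which was added after the data were seen. Over the left-out arrays Zbtb16 ran from -0.10 to 0.46, Tsc22d3 from -0.21 to 0.052, Errfi1 from -0.14 to 0.00084, Nr3c1 from -0.11 to -0.022, Fkbp5 from -0.42 to -0.12, Mt2 from 0.22 to 0.48 and Mt3 from 0.0076 to 0.34. Over all 23, list medians ran from -0.68 to 0.14 for early response, -0.021 to 0.37 for clock, -0.054 to 0.098 for other glucocorticoid-induced, -0.080 to 0.11 for corticosteroid metabolism, -0.13 to -0.0047 for receptor partner and -0.11 to -0.010 for zinc and copper genes. With array weights the early response median was -0.28 and the clock median 0.14. The causes were not tested. Same-numbered arrays deviated together, with a correlation over 0.1, in 3 of 5 pairs, the highest being 0.525 for number 1. Few arrays correlated best with their own number, as given below, and the main fit did not take the numbers as pairs. Whether they mark pairs is not settled by these values. With the replicate number as a block, limma called 0 genes, and the smallest adjusted p among the 10 genes was 0.320, for Sgk1. Then 3 of the 10 genes, Sgk1, Mt1 and Mt2 (unadjusted p = 0.0281), were at an unadjusted p under 0.05, beside 11.7% of all genes. Of the arrays, 1 of 5 labelled FMR1-KO and 0 of 5 Control arrays correlated best with their own number.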
